A study of Rattus norvegicus with 15 samples.

Results

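The genes described here encode the carriers that move bicarbonate, protons, sodium and chloride across the gut lining. They are the Slc4, Slc9, Slc12 and Slc26 families, measured in mucosal cells of 5 segments of the rat digestive tract. Members were all probes, control spots aside, whose gene name in the scanner files began with Slc4a, Slc9a, Slc12a or Slc26a followed by a number. The rule found 52 probes for 40 genes, of 41012 probes and 35537 genes on the array, and each gene was read by its brightest probe. It also caught 3 genes that are not carriers but bind them. These are Slc9a3r1 and Slc9a3r2 (now Nherf1 and Nherf2), scaffold proteins that anchor Slc9a3 under the brush border, and Slc4a1ap (kanadaptin). Slc9a10 in the files is now named Slc9c1. Of the 40 genes, 37 passed the filter on dim probes and were tested. Slc12a3, Slc26a5 and Slc4a9 did not, since none was well above background in all 3 samples of any segment. The Slc26a6 and Slc26a9 genes were not analysed here.

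The cells were those of 5 gut segments of Sprague Dawley males (stomach, duodenum, jejunum, ileum and colon), 15 samples in all with 3 per segment. The label of ileum 3 gives no strain or sex, and no label gives an age, a treatment or the number of animals. Segments had been turned inside out, treated briefly with pronase and elutriated to enrich mucosal cells, per the series text, so each sample mixes surface, crypt or gland cells. Fewer cells of a type and less RNA per cell cannot be told apart in such samples. Each sample was 1 colour of an Agilent rat array, and its level for a gene is the log2 intensity minus that sample's 75th percentile. A level of 0 is therefore a fairly bright probe, and a difference of 1 is a doubling. Small bowel below means the average of the duodenum, jejunum and ileum.

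Surface cells of the small bowel and colon take up sodium chloride by pairing a sodium proton exchanger (Slc9a2 or Slc9a3) with an apical chloride bicarbonate exchanger such as Slc26a3. Crypt cells secrete chloride that enters through the basolateral cotransporter Slc12a2 and leaves through Cftr. In the acid-secreting parietal cell of the stomach, bicarbonate made beside each proton leaves for the blood through the basolateral anion exchanger Slc4a2, with Slc9a4 and Slc26a7 in the same membrane. Duodenal cells, which meet gastric acid, load bicarbonate through sodium bicarbonate cotransporters such as Slc4a4 and Slc4a7 and secrete it.

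The array reads each gene through a probe of 60 bases. The probes below carry the main differences, and their positions are given on the rat build rn3 as in the array files. The Slc26a3 probe (chr6:49346528-49346587, plus strand) reads the gene with the widest range over the gut, and the Slc26a7 probe (chr5:28901375-28901517, minus strand) the one measured above background mainly in the stomach. The Slc9a4 probe (chr9:39769172-39773243, plus strand) and the Slc4a2 probe (chr4:6101493-6101552, minus strand) read carriers that were highest in the stomach. The Slc4a7 probe (chr15:12084114-12087723, minus strand) reads the one carrier that was highest in the duodenum. The Slc9a3r1 probe (chr10:105268471-105268748, plus strand) and the Slc9a3r2 probe (chr10:13891324-13891383, minus strand) read the 2 scaffold genes that ran in opposite directions.
Slc26a3: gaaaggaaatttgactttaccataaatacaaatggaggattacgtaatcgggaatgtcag
Slc26a7: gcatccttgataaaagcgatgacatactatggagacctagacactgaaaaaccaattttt
Slc9a4: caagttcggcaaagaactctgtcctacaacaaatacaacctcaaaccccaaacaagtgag
Slc4a2: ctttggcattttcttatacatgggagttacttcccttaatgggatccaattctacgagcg
Slc4a7: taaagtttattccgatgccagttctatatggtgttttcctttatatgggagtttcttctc
Slc9a3r1: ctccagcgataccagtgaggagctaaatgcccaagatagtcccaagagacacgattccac
Slc9a3r2: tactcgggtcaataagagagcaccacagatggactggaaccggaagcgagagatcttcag
Where a position is wider than 60 bases, as for Slc26a7, Slc9a4, Slc4a7 and Slc9a3r1, the probe joins 2 exons and skips an intron. This held for 11 of the 36 probes used in the tests that had a position.

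Samples differed in ways that follow the segments. The stomach was scanned on a day of its own and with older scanner software, and the ileum and colon also had slides and scan days of their own. Segment and scan therefore cannot be told apart for these 3 segments. The duodenum and jejunum shared 3 arrays, 1 sample in each colour, and can be compared within an array. Colon 1 and 2 were the colours of 1 hybridisation, while the slide of colon 3 bears the same barcode and was scanned at another time. The share of probes well above background was 95.4% to 97.1% in the stomach, where the software used a lower limit, and 44.2% to 92.4% in the other samples, with ileum 1 and jejunum 1 lowest. Of the 37 tested genes, 4 (Slc26a1, Slc26a7, Slc26a8 and Slc4a8) passed the filter only through the stomach, so counts of these 4 support nothing. Marker genes followed the segment labels. The mean level of 5 stomach markers was 5.79 to 6.80 in the stomach against -2.57 to 0.69 elsewhere, that of 5 small bowel markers was 1.28 to 4.95 in the small bowel against -2.79 to -1.96 in the stomach and colon, and that of 2 ileal markers was 3.70 to 3.87 in the ileum against at most 0.24 elsewhere. Of the 3 colon markers tested, Car1 (with a colon value left out as an outlier) and Aqp8 were highest in the colon, whereas Hoxd10 was lowest there.

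By limma's F test over the 5 segments, 22 of the 37 genes differed (adjusted p under 0.05), beside 42.1% of all 33645 genes tested. Slc9 exchangers made up 7 of these (of 10 tested), Slc4 carriers 5 (of 9), Slc12 cotransporters 5 (of 8) and Slc26 exchangers 3 (of 7), with both Nherf genes added. Against the small bowel, 16 of 37 genes differed in the stomach (27.3% of all genes did), 11 higher (15.7% of all genes) and 5 lower (11.7%). In the colon 11 differed (25.7% of all genes), 7 higher (12.5%) and 4 lower (13.2%). A filter applied without the stomach left 33 genes. Of these, 15 differed in the stomach (30.6% of all genes then tested), 10 higher and 5 lower. In the colon 13 then differed (30.4%), 8 higher and 5 lower. These shares are counts of the members beside the whole array, not a test of the families. The 5 contrasts used below are stomach or colon minus small bowel, duodenum or ileum minus jejunum, and stomach minus colon. Other pairs of segments are named where used. The median difference of the 37 genes was 0.18 for stomach minus small bowel and -0.11 for colon minus small bowel, on the log2 scale. Over all genes tested the stomach's median was 0.29, so a gene 0.29 higher in the stomach was typical of the array.

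**Figure D1:**
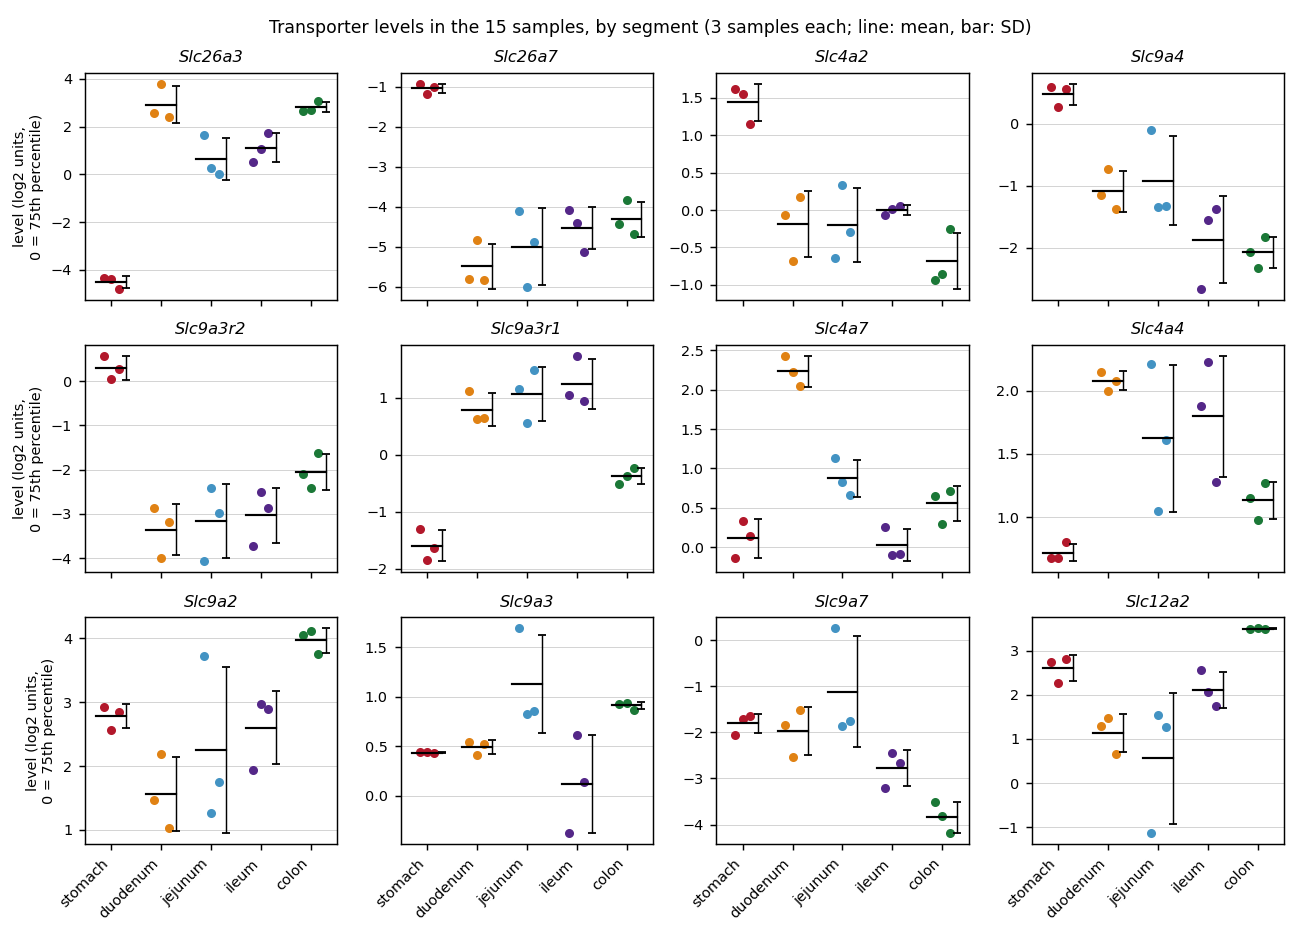
Level of 12 genes in each of the 15 samples, in log2 units relative to the sample's 75th percentile (y axis), by segment (x axis). Points are samples, lines are means of 3 and bars are SD. Slc26a3 lies between -4.82 and -4.34 in the stomach and at or above 0.01 in all other samples, whereas Slc26a7, Slc4a2, Slc9a4 and Slc9a3r2 are highest in the stomach and Slc4a7 in the duodenum.

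The apical chloride bicarbonate exchangers come first. Slc26a3 (DRA, the exchanger whose loss causes congenital chloride diarrhoea in humans) had levels of -4.34, -4.39 and -4.82 in stomach samples 1 to 3. For duodenum they were 2.56, 3.81 and 2.40, for jejunum 1.65, 0.26 and 0.01, for ileum 0.52, 1.07 and 1.75, and for colon 2.67, 2.72 and 3.06. All 12 bowel samples were above all 3 stomach samples, and every duodenal and colonic sample was above every jejunal and ileal one. The stomach was 67.5-fold lower than the small bowel (log2 difference -6.08 ± 0.33 SE, adjusted p = 5.33e-10) and 166-fold lower than the colon (-7.38 ± 0.47, adjusted p = 8.97e-09). The first of these kept its call under all 29 alternative analyses, with a size from 4.17 to 6.60. By level, the order was duodenum (2.92 ± 0.77 SD, n = 3), colon (2.82 ± 0.21), ileum (1.11 ± 0.61), jejunum (0.64 ± 0.89) and stomach (-4.52 ± 0.26). The duodenum and colon did not differ beyond their spread (difference 0.11 ± 0.46 SE, adjusted p = 0.892), nor did the ileum and jejunum (adjusted p = 0.584). Between these 2 pairs the differences passed the test: the ileum was 3.46-fold below the colon (adjusted p = 0.0206).

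Slc26a3 was also higher in the duodenum than in the jejunum, 5.02-fold (2.33 ± 0.33 SE, adjusted p = 0.00193), one of 2 genes of the 37 that differed between these neighbours, where 0.538% of all genes did (0.253% higher, 0.285% lower). Within the 3 shared arrays the differences were 2.55, 2.16 and 2.14. Without jejunum 3 the call was lost (1.93 ± 0.44, adjusted p = 0.227). The colon was 2.46-fold above the small bowel average (1.30 ± 0.42, adjusted p = 0.0308). Colonic values overlapped those of the duodenum, and this call was lost under 6 alternatives, among them leaving out duodenum 3 (adjusted p = 0.0566), jejunum 3 (0.0665) or colon 3 (0.0876).

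Slc26a4 (pendrin), an anion exchanger best known from the inner ear, thyroid and kidney, lies beside Slc26a3. On the rn3 map their probes are 45.8 kb apart on chromosome 6, and the RefSeq table lists 2 genes between them, Cbll1 and a long non-coding RNA. Slc26a4 levels stayed between -2.01 and -0.42 in the 15 samples, and no contrast passed the test (F test adjusted p = 0.303). For stomach minus small bowel its difference was -0.24 ± 0.25, beside -6.08 ± 0.33 for its neighbour.

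Slc26a7, a chloride carrier of the parietal cell's basolateral membrane, had levels of -0.93, -1.17 and -1.01 for stomach. For duodenum they were -5.81, -4.83 and -5.83, for jejunum -4.10, -6.01 and -4.89, for ileum -4.08, -4.40 and -5.12, and for colon -4.43, -3.82 and -4.67. All stomach values lay above all others. None of the 9 small bowel samples and 1 of 3 colon samples was well above background, so the stomach was at least 7.18-fold higher than the small bowel on the reported scale (fitted difference 3.97 ± 0.41 SE, adjusted p = 1.21e-06). With another background correction, normexp, the difference was 1.71 and still passed the test, but lay below that bound, so the size depends on the correction. The bound sets the stomach mean against the lowest signal each small bowel array could measure or the probe's own, whichever was higher. Against the colon the fitted difference was 3.34 ± 0.58 (adjusted p = 3.32e-04), a call that was lost with normexp (0.85 ± 0.36, adjusted p = 0.0657). Slc26a7 passed the filter on dim probes only through the stomach, the segment where it was high and the limit was lower. Its tests of the stomach therefore follow from that choice in part, and its values are given as description.

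Among the other Slc26 genes, the sulphate carrier Slc26a2 was 2.24-fold higher in the stomach (1.16 ± 0.26 SE, adjusted p = 0.00267) and 1.99-fold higher in the colon (adjusted p = 0.0339) than in the small bowel. The colon call was lost under 8 alternatives. Slc26a1, Slc26a8 and Slc26a11 were dim, with segment means from -3.94 to -2.25, and passed no contrast.

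The anion exchangers of the Slc4 family differed next. Slc4a2 (AE2), which exports bicarbonate from the parietal cell, had levels of 1.62, 1.55 and 1.15 for stomach, -0.06, -0.68 and 0.18 for duodenum, -0.64, 0.33 and -0.30 for jejunum, -0.07, 0.01 and 0.06 for ileum, and -0.94, -0.86 and -0.25 for colon. The lowest stomach sample was above the highest sample of the rest. The stomach exceeded the small bowel 2.97-fold (1.57 ± 0.25 SE, adjusted p = 1.45e-04) and the colon 4.30-fold (2.10 ± 0.36, adjusted p = 2.69e-04), and neither call was lost under any alternative. Slc4a3 (AE3) was 2.19-fold higher in stomach than in small bowel (1.13 ± 0.31, adjusted p = 0.0112), a call lost under 3 alternatives. Slc4a1, the red cell anion exchanger band 3, passed no contrast (0.26 ± 0.33 for stomach minus small bowel). The mean level of 5 red cell markers was 0.18 to 0.30 in the stomach against -2.02 to -0.30 elsewhere. For stomach minus small bowel, however, only 2 of these 5 markers passed as higher, and the rest passed in neither direction. Among them, Hbb-b1 had a stomach mean of 3.57 against segment means of -2.81 to 1.12 elsewhere. Alas2 was flat, at 0.25 against -0.13 to 0.37.

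Of the sodium bicarbonate cotransporters, Slc4a7 (NBCn1) was singled out after its values were seen, as the one gene of the 37 that exceeded each other segment in the duodenum. Its duodenal levels were 2.43, 2.22 and 2.04, and those of the jejunum 1.13, 0.83 and 0.66. The stomach had -0.14, 0.34 and 0.14, the ileum 0.26, -0.10 and -0.08, and the colon 0.65, 0.30 and 0.72. All 3 duodenal samples were above all others by more than 0.9. The duodenum exceeded the jejunum 2.70-fold (1.43 ± 0.19 SE, adjusted p = 0.00127), the colon 3.21-fold (adjusted p = 3.22e-04), the stomach 4.55-fold (adjusted p = 3.63e-06) and the ileum 5.08-fold (adjusted p = 3.81e-05). Within the 3 shared arrays the duodenum was ahead of the jejunum by 1.78, 1.09 and 1.22. Leaving out duodenum 1 or jejunum 3 ended the call against the jejunum (adjusted p = 0.147 and 0.13), with the difference at 1.34 and 1.33. Of all genes tested, 0.0594% were highest in the duodenum by this rule.

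The ileum was lower in Slc4a7 than the jejunum (fell by 0.91 ± 0.24, adjusted p = 0.0401), a call that was lost under 16 of 29 alternatives. Slc4a4 (NBCe1), the classical bicarbonate loader, was described in the same way. Its levels were 2.15, 2.00 and 2.08 for duodenum, 2.21, 1.05 and 1.61 for jejunum, 1.88, 2.23 and 1.28 for ileum, 1.15, 0.98 and 1.27 for colon, and 0.68, 0.68 and 0.80 for stomach. All stomach samples were below all small bowel ones, and the colon overlapped the jejunum. The stomach was 2.16-fold lower than the small bowel (-1.11 ± 0.25 SE, adjusted p = 0.00276). Duodenum minus jejunum was 0.46 ± 0.25 for Slc4a4 (adjusted p = 0.659). Whether Slc4a7 and Slc4a4 differ in this contrast was not tested.

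Slc4a10, a sodium-dependent bicarbonate carrier best known from brain, was lower in the colon. Its levels there were -3.30, -3.02 and -3.55. Elsewhere they ran from -1.82 to -0.71, with the stomach at -1.30, -1.0 and -1.44, the duodenum at -1.50, -1.71 and -0.71, the jejunum at -1.25, -0.95 and -1.58, and the ileum at -1.60, -1.82 and -1.33. The colon was 3.66-fold below the small bowel (-1.87 ± 0.34 SE, adjusted p = 7.73e-04). Over the 29 alternatives the call was kept, with adjusted p up to 0.0401. The difference ran from -2.01 to -0.69, so its size is not exact. Slc4a10 was well above background in 1 of 3 colon samples, and the gene's second probe gave -0.72 ± 0.59 (adjusted p = 0.397). Slc4a5, Slc4a8 and Slc4a11 passed none of the 5 contrasts. Slc4a5 missed the threshold for colon minus small bowel (1.22 ± 0.44, adjusted p = 0.0523) but passed under several alternatives, among them quantile normalisation (1.32, adjusted p = 0.0234). It was lower in the duodenum than in the colon (-1.45 ± 0.49, adjusted p = 0.0413).

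**Figure D2:**
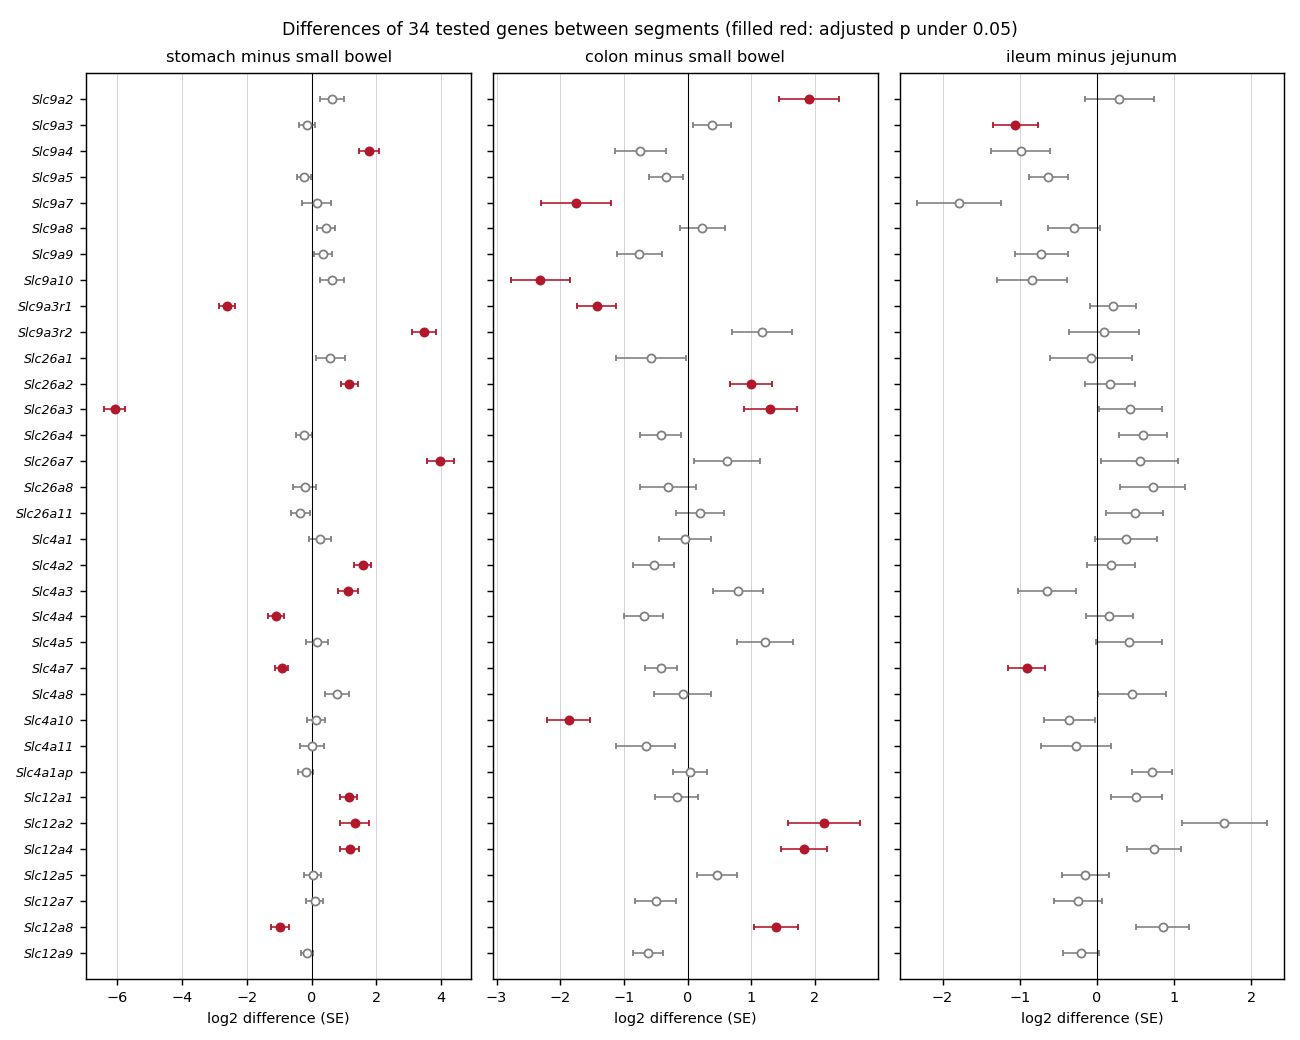
Log2 difference with SE (x axes) of 34 tested genes (y axis) for stomach minus small bowel, colon minus small bowel and ileum minus jejunum. Filled red points passed the test across all genes (adjusted p under 0.05), 14, 10 and 2 of those plotted, and in the last panel both lie below 0.

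The sodium proton exchangers of the plasma membrane showed a different order. Slc9a4 (NHE4), a basolateral exchanger abundant in parietal cells, had stomach levels of 0.59, 0.28 and 0.57. They were -1.15, -0.73 and -1.38 for duodenum, -0.09, -1.34 and -1.33 for jejunum, -2.67, -1.55 and -1.38 for ileum, and -2.07, -2.33 and -1.82 for colon. No sample of another segment reached the stomach's lowest, with jejunum 1 nearest. The stomach exceeded the small bowel 3.41-fold (1.77 ± 0.32 SE, adjusted p = 4.02e-04) and the colon 5.71-fold (2.51 ± 0.45, adjusted p = 4.09e-04), and both calls were kept under every alternative.

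Slc9a2 (NHE2), an apical exchanger, was highest in the colon by level, at 4.06, 4.11 and 3.75. The stomach had 2.93, 2.57 and 2.84, the duodenum 1.47, 2.19 and 1.03, the jejunum 3.73, 1.27 and 1.75, and the ileum 1.94, 2.97 and 2.89. Every colon sample was above every other sample, although jejunum 1 came within 0.02 of the lowest. The colon was 3.72-fold above the small bowel (1.90 ± 0.47 SE, adjusted p = 0.0071). It did not pass against the stomach (stomach minus colon -1.26 ± 0.53, adjusted p = 0.0738) or the ileum (adjusted p = 0.0776).

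Slc9a3 (NHE3), the main apical sodium absorber of the small bowel, had a narrow range over the gut. Its levels were 0.44, 0.44 and 0.43 for stomach, 0.54, 0.41 and 0.52 for duodenum, 1.70, 0.83 and 0.86 for jejunum, -0.38, 0.61 and 0.14 for ileum, and 0.93, 0.94 and 0.87 for colon. Stomach minus small bowel was -0.14 ± 0.24 (adjusted p = 0.689) and colon minus small bowel 0.38 ± 0.30 (adjusted p = 0.371). The ileum lay below the jejunum in all samples (-1.06 ± 0.29, adjusted p = 0.0477), but the call was lost under 20 of 29 alternatives. Without jejunum 1 the difference was -0.72 (adjusted p = 0.253) and without ileum 1 it was -0.80 (adjusted p = 0.149).

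Between the ileum and jejunum, 4 of 37 genes differed, all lower in the ileum, Slc9a3 and Slc4a7 among them (4.23% of all genes differed, 1.46% higher and 2.77% lower). With normexp 5 were called, 2 higher and 3 lower. Without duodenum 2 and jejunum 1, 1 of the 37 genes differed. The ileum's slides were scanned apart from those of the jejunum, and the mean level of 6 leukocyte markers was 0.92 to 1.28 in the ileum against at most 0.24 elsewhere. The part of either in these differences was not tested. Slc9a5, a plasma membrane exchanger best known from brain, passed no contrast.

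Exchangers of internal membranes come next. Slc9a7 (NHE7), of the trans-Golgi network, was lower in the colon, at -3.51, -3.82 and -4.19. It had -2.05, -1.72 and -1.65 for stomach, -1.84, -2.54 and -1.52 for duodenum, 0.27, -1.87 and -1.76 for jejunum, and -3.21, -2.45 and -2.66 for ileum. The colon was 3.36-fold below the small bowel (-1.75 ± 0.55, adjusted p = 0.0281), a call lost under 5 alternatives, among them leaving out colon 1 (adjusted p = 0.0667), colon 3 (0.104) or duodenum 3 (0.056). With normexp it was -0.27 (adjusted p = 0.49). Slc9a8 passed no contrast, and Slc9a9 only stomach minus colon (1.12 ± 0.40, adjusted p = 0.0367), a call lost under 9 alternatives. The second Slc9a9 probe gave 1.33 ± 0.63 there (adjusted p = 0.113). The rule left out 2 more probes that only newer names assign to Slc9a9. Their means were -1.73 and -3.84 in the stomach against -5.34 and -5.31 in the duodenum and -6.50 and -5.19 in the colon. They were -4.83 and -4.67 in the jejunum and -2.72 and -3.94 in the ileum. For each of these Slc9a9 probes the stomach mean was above the colon mean, and the call rests on the probe used.

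Slc9a10 (Slc9c1), a sperm protein in textbooks, was dim here and lowest in the colon. Its levels were -2.09, -1.84 and -1.99 for stomach, -2.63, -3.22 and -2.03 for duodenum, -2.22, -2.24 and -2.08 for jejunum, -3.84, -2.77 and -2.43 for ileum, and -4.75, -4.53 and -5.50 for colon, where 1 of 3 samples was well above background. Colon minus small bowel was -2.31 ± 0.47 SE (adjusted p = 0.00174), but -0.18 ± 0.25 with the normexp correction (adjusted p = 0.59).

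The scaffold genes that hold Slc9a3 at the brush border ran in opposite directions. Slc9a3r1 (Nherf1) had levels of -1.30, -1.85 and -1.63 for stomach, 1.12, 0.62 and 0.64 for duodenum, 1.15, 0.55 and 1.49 for jejunum, 1.05, 1.74 and 0.94 for ileum, and -0.51, -0.37 and -0.23 for colon. The 3 blocks did not overlap, with the stomach lowest, the colon between and the small bowel highest. The stomach was 6.17-fold (-2.62 ± 0.24 SE, adjusted p = 3.21e-07) and the colon 2.70-fold (-1.43 ± 0.30, adjusted p = 0.00249) below the small bowel.

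Slc9a3r2 (Nherf2) had 0.58, 0.05 and 0.27 for stomach, -2.87, -4.00 and -3.19 for duodenum, -4.07, -2.42 and -2.98 for jejunum, -3.72, -2.50 and -2.87 for ileum, and -2.10, -2.42 and -1.62 for colon. All stomach samples were above all others. The stomach exceeded the small bowel 11.1-fold (3.48 ± 0.37 SE, adjusted p = 1.85e-06) and the colon 4.95-fold (2.31 ± 0.53, adjusted p = 0.00286). Only 6 of 9 small bowel samples were well above background for this gene. The difference from the small bowel ran from 2.23 to 3.63 over the alternatives, so its size is not exact. Nherf2 is also made outside the epithelium, in blood vessels among other places. The 5 endothelial markers had a mean level of -0.01 to 0.41 in the stomach against -1.96 to -1.09 elsewhere, and 4 of the 5 were higher in stomach than in small bowel. Their part in the Slc9a3r2 difference was not tested.

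Other cell types moved with the stomach too, beside every gene named as higher or lower there. Fibroblast and matrix markers (5 of 7 higher) had mean levels of 1.21 to 1.33 in the stomach against -2.58 to -0.47 elsewhere, and nerve and glial markers (4 of 7 higher) -0.80 to -0.70 against -2.68 to -1.67. Leukocyte and smooth muscle markers went both ways. Against the small bowel, 1 of 6 leukocyte markers rose in the stomach and 3 fell. Of 5 smooth muscle markers, 1 rose and 1 fell. A list of 6 genes that cells can switch on during handling, immediate early genes and the heat shock gene Hspa1a, was also read. All 6 were lower in the stomach (mean level -0.32 to -0.18 against 2.89 to 5.31). In the colon, 4 of 7 fibroblast markers and 4 of 6 leukocyte markers were lower than in the small bowel, and 5 of the 6 handling genes were higher. Every marker of these lists was well above background in the stomach, whose limit was lower. Their part in the transporter differences was not tested.

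Of the cation chloride cotransporters, Slc12a2 (NKCC1), which loads chloride into secreting crypt cells, was highest by level in the colon, at 3.50, 3.52 and 3.48. The stomach had 2.74, 2.26 and 2.81, the duodenum 1.30, 1.47 and 0.65, the jejunum -1.14, 1.55 and 1.26, and the ileum 2.55, 2.06 and 1.74. All colon samples were above all others, and jejunum 1 stood far below the rest. The colon was 4.40-fold above the small bowel (2.14 ± 0.57 SE, adjusted p = 0.0109). The gene's second probe gave 0.71 ± 0.57 (adjusted p = 0.381), and with the mean of both probes the call was lost (1.43 ± 0.56, adjusted p = 0.0738), as it was with quantile normalisation (1.59, adjusted p = 0.0523). The stomach call (1.33 ± 0.45, adjusted p = 0.037) was lost under 11 alternatives.

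Slc12a8, a member whose transported substrate is debated, differed at both ends of the gut. Its levels were -0.49, -0.20 and -0.19 for stomach, 0.10, 0.49 and -0.00 for duodenum, 0.44, 0.70 and 0.45 for jejunum, 1.71, 1.19 and 1.11 for ileum, and 1.90, 1.58 and 2.86 for colon. The stomach was below all other samples, and the colon overlapped the ileum and no other segment. The colon was 5.16-fold above the stomach (stomach minus colon -2.37 ± 0.39 SE, adjusted p = 2.33e-04) and 2.61-fold above the small bowel (adjusted p = 0.00807), and the stomach was 1.98-fold below the small bowel (adjusted p = 0.0139). The last of these calls was lost without stomach 1 (adjusted p = 0.0808), without stomach 3 (0.0607) and with the scan day as block (0.0631).

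The potassium chloride cotransporter Slc12a4 (KCC1), a regulator of cell volume, was higher than in the small bowel in both the colon (3.54-fold, adjusted p = 0.00157) and the stomach (2.26-fold, adjusted p = 0.00565). The stomach call was lost without stomach 3 (adjusted p = 0.0531). Slc12a1 (NKCC2), the cotransporter of the kidney's loop of Henle, was 2.20-fold higher in stomach than in small bowel (1.14 ± 0.27, adjusted p = 0.00453). Slc12a9 passed none of the 5 contrasts, and of the other pairs it was higher in the jejunum than in the colon (0.77 ± 0.26, adjusted p = 0.0402).

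For Slc12a5 and Slc12a7, separate probes of a gene did not give the same answer, so their sequences are shown. Slc12a5 (KCC2) is a neuronal chloride exporter. Its brighter probe, at chr3:155943886-155943945, was well above background in all 15 samples with segment means of 0.20 to 0.67. The other, at chr3:155939345-155940461, joins 2 exons and was well above background in 1 of 15 samples, with segment means of -6.91 to -4.25. The rule used the brighter probe, and no contrast passed.
Slc12a5 brighter probe: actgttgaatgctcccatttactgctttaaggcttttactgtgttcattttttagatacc
Slc12a5 exon-joining probe: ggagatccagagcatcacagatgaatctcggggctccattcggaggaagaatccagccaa
Which of these reads the Slc12a5 transcript in these cells was not tested.

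Slc12a7 (KCC4), a potassium chloride cotransporter, had 5 probes along chromosome 1 on the minus strand. Numbered from the 5′ end of the gene, they gave stomach minus small bowel differences of 1.16 ± 0.26, -0.12 ± 0.33, 1.14 ± 0.29, -0.74 ± 0.25 and 0.10 ± 0.26. Probes 1 and 3, which join exons, passed as higher in the stomach (adjusted p = 0.00297 and 0.00763). Probe 4 passed as lower (adjusted p = 0.035), and probes 2 and 5 did not pass. In the colon probe 1 passed as lower than the small bowel (-1.52 ± 0.33, adjusted p = 0.00287) and the others did not pass. The brightest, probe 5, stood for the gene, so the statement that Slc12a7 passed no contrast rests on that choice.
Slc12a7 probe 1: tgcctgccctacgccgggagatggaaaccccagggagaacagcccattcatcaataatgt
Slc12a7 probe 2: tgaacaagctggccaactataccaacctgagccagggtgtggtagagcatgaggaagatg
Slc12a7 probe 3: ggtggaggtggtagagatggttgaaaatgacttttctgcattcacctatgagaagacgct
Slc12a7 probe 4: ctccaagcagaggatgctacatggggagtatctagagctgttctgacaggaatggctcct
Slc12a7 probe 5: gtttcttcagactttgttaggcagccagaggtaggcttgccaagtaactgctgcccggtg
No 2 of these shared a run of 15 bases on either strand.

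**Figure D3:**
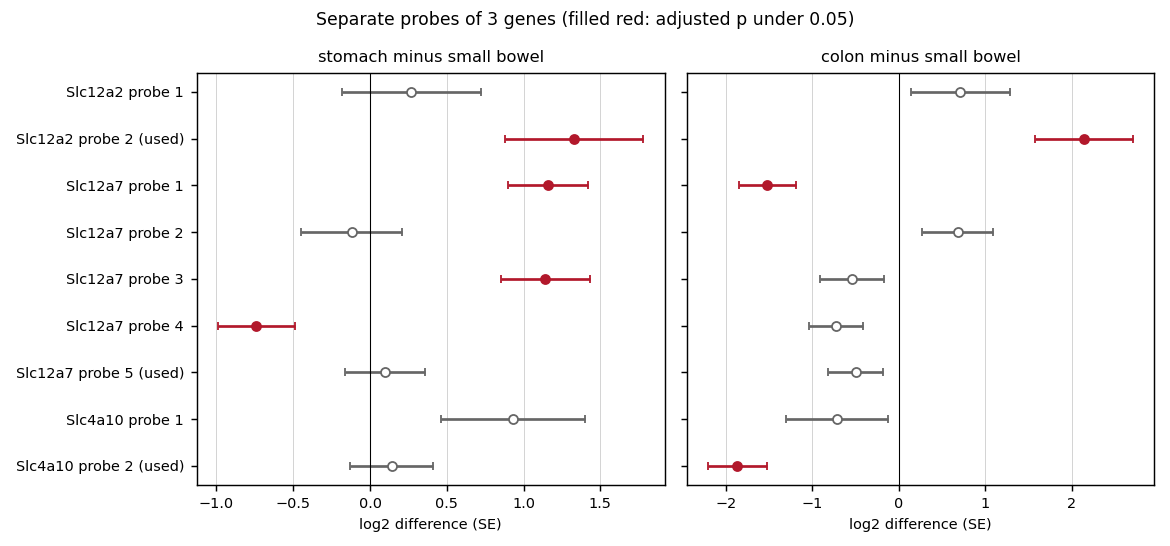
Log2 difference with SE (x axes) for the separate probes of Slc12a2, Slc12a7 and Slc4a10 (y axis, numbered from the 5′ end of the gene) for stomach minus small bowel and colon minus small bowel. Filled red points passed the test. The Slc12a7 probes run from -0.74 to 1.16 in the first panel, and 1 probe each of Slc12a2 and Slc4a10 passed in the second.

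Between the duodenum and jejunum, the comparison that holds the array constant, 2 of 37 genes passed, Slc26a3 and Slc4a7, both higher in the duodenum. They were also the only genes of the 37 with a difference over 1 log2 unit in the same direction on each of the 3 arrays. Jejunum 1 and duodenum 2, the colours of 1 array, departed from the other pairs for several genes. For Slc12a2 that array gave 2.61 where the others gave 0.04 and -0.90, and for Slc9a7 it gave -2.81 where the others gave -0.08 and 0.35.

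**Figure D4:**
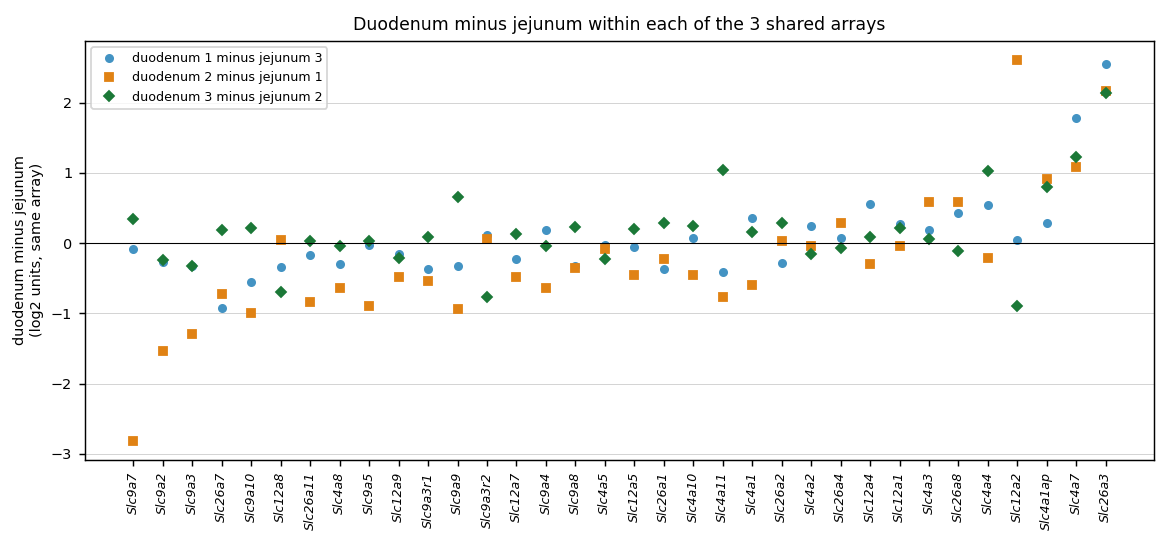
Duodenum minus jejunum in log2 units within each of the 3 shared arrays (y axis) for 34 genes (x axis), sorted by mean. Slc26a3 (2.14 to 2.55) and Slc4a7 (1.09 to 1.78) lie above 1 on all 3 arrays, and the array of duodenum 2 and jejunum 1 stands apart for Slc12a2 and Slc9a7.

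Across the whole list, 6 of the 37 genes were highest in 1 segment, exceeding each of the other 4 (7.64% of all genes did so). In the stomach there were 5 (3.96% of all genes), Slc4a2, Slc9a4 and Slc9a3r2 among them, and in the duodenum 1, Slc4a7 (0.0594%). The 5 include Slc26a7, which passed the filter only through the stomach and so supports nothing in this count. With the filter applied without the stomach it dropped out, and the total was 5. None was highest in the jejunum (0.0446% of all genes), ileum (0.175%) or colon (3.4%). The colon's count changed when a jejunal sample was left out. In the full fit, Slc12a2 and Slc9a2 already passed as higher in the colon than in the jejunum (adjusted p = 0.00369 and 0.02). They did not pass against the stomach (adjusted p = 0.344 and 0.0738) or the ileum (0.252 and 0.0776). Without jejunum 1, Slc12a2 and Slc9a2 were both highest in the colon, and without jejunum 2, Slc9a2 was. Of 23 genes called in at least 1 of 5 contrasts, 7 differed from the small bowel in both the stomach and colon, and 5 of these 7 in the same direction. Both contrasts share the small bowel samples. Between stomach and colon directly, 13 genes differed (35.3% of all genes), 10 higher in the stomach (21.1% of all genes) and 3 lower (14.2%). With normexp 7 were higher and 4 lower. With the filter applied without the stomach, 12 of 33 differed (36% of all genes then tested), 9 higher and 3 lower. The 14 genes that passed none of the 5 contrasts had differences there from -1.06 to 1.22.

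A list of 45 partner genes of these carriers, of which 42 were tested, gives the setting. In the stomach 13 were higher and 14 lower than in the small bowel, where 15.7% of all genes were higher and 11.7% lower. The list's median was 0.28 beside 0.29 for all genes. The 4 largest fitted rises were those of the proton pump subunits Atp4a and Atp4b, the potassium channel Kcnj16 (93.2-fold) and Tesc (33.1-fold), a calcium-binding protein. The Atp4b probe was saturated in all 3 stomach samples, so its rise was at least 84.5-fold. The Atp4a fit gave 824-fold (9.69 ± 0.33 SE, adjusted p = 1.89e-12), with the probe saturated in 1 of 3 stomach samples. Of the 9 small bowel samples, 5 were well above background for Atp4a and 4 for Kcnj16. These folds are therefore not exact and their order is not settled. Kcnj16 passed the dim-probe filter only through the stomach, so counts of it support nothing. With the filter applied without the stomach, 41 partner genes were tested. Then 12 were higher and 15 lower in the stomach, and 19 higher and 5 lower in the colon, than in the small bowel. The 4 largest fitted falls were those of guanylin Guca2a (103-fold, with 2 of 9 small bowel samples saturated), its receptor Gucy2c (52.0-fold), which raises cyclic GMP and drives fluid secretion, the chloride channel Clcn2 (20.6-fold) and uroguanylin Guca2b (14.3-fold).

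In the colon 19 partner genes were higher and 6 lower than in the small bowel, where 12.5% of all genes were higher and 13.2% lower. The list's median was 0.76 beside -0.00 for all genes. The largest rises were the carbonic anhydrases Car1 (113-fold, 6.82 ± 0.51 SE, adjusted p = 2.34e-07) and Car2 (38.5-fold), the colonic proton pump Atp12a (8.24-fold) and the sodium pump modulator Fxyd3 (6.48-fold). The Car1 rise rests on 11 of 12 values, since a colon spot was marked as an outlier and left out. The largest falls were Pdzk1 (31.1-fold, well above background in 2 of 3 colon samples), a scaffold of the Nherf family, Guca2b (3.97-fold), the sodium channel subunit Scnn1g (3.64-fold) and the kinase Prkg2 (3.34-fold). Chosen after their values were seen, Scnn1a and Scnn1b, the other subunits of that channel, were 3.96-fold and 3.56-fold higher in the colon. So chosen too, the chloride channel Cftr was 2.09-fold higher in the colon (1.07 ± 0.35, adjusted p = 0.033). Atp4a, Atp4b and Car1 are also on the segment marker lists above.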

How the data were processed

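Total RNA of 15 rat mucosal cell samples was hybridised to Agilent whole-genome arrays. The deposited scanner files hold intensity values. The processed signal is background-subtracted and dye-normalised by the Agilent software (versions 8.5.1.1, 9.5.1.1, 9.5.3.1 and 10.1.1.1), per the file headers. Only the channel that the labels give to a sample was used. From these intensities, log2 levels were taken relative to each sample's 75th percentile, and spots marked as outliers were left out. Probes well above background in all 3 samples of a segment were kept, leaving 33645 genes. Genes were tested with limma 3.58.1 in R 4.3.3, in a model of segment and dye with slides as random blocks (correlation 0.361), an intensity trend and Benjamini-Hochberg adjustment over all genes. Whether the isolations came from separate animals is not stated, so p-values cover only the spread of these samples, which may be technical, and the number of arrays limits their precision. Members and lists were chosen with earlier results of these data known. The text gives values in every sample for the 12 called genes with the largest differences and for a named list of well-known carriers, with others by range, and up to 4 partner genes per direction. Alternatives covered background correction, normalisation, filters, dye, blocks, probe choice and each sample left out. The fit was tested on simulated data. Some results are not reported here, and counts over the 37 genes include genes that are not named.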

Additional observations from a re-analysis of the deposited data

How the results depend on the processing

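Of 46 calls of a gene in a contrast, 24 were kept under all alternatives tried and 22 were lost under at least 1, and none changed direction. There were 29 alternatives, 14 that changed the processing or set aside several samples and 15 that left out 1 sample. The count of genes called between ileum and jejunum, 4 as reported, was 1 with the scan day as block, without the intensity trend and without duodenum 2 and jejunum 1, and 2 with the mean of probes and with colon 2 and 3 counted as 1 sample. Leaving out 1 sample gave 1 to 6. The count for colon minus small bowel, 11 as reported, was 7 with colon 2 and 3 as 1 sample and 7 to 13 with 1 sample left out, the lowest without colon 3. That for duodenum minus jejunum, 2 as reported, was 0 to 2, with 0 without jejunum 3 and 1 without duodenum 1. The other counts stayed within 1.5 times of the reported ones. Setting colon 2 and 3 together and leaving out duodenum 2 with jejunum 1 were chosen after seeing the data.

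Replicate numbers did not pair the samples (30 same-numbered pairs, correlations of deviations from -0.42 to 0.29, and 3 of 15 samples correlated best with their own number). With the replicate block the count for ileum minus jejunum was 1.

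The normexp correction used the median signal in all files, because the colon files hold no mean signal. With it the stomach minus small bowel difference of Slc26a7 was 1.71. Over all genes the median of stomach minus small bowel was 0.29 as reported, 0.11 with quantile normalisation and -0.06 with normexp, and that of stomach minus colon 0.26, 0.01 and -0.39. Signal over background limits dim genes such as Slc26a7 and Slc9a10. With the dim-probe filter applied without the stomach, Slc26a7 was not tested.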
